A study of Drosophila melanogaster with 12 samples.

Results

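The genome of the Swedish line SU58 was present in 0, 1 or 2 copies across 12 RNA-seq libraries of Drosophila melanogaster Malpighian tubules, and each gene was followed along that dose. All 12 of the 12 libraries of the series were used, and each was placed by the cross named in its label. The 6 libraries with 0 copies came from the parental crosses SU26xSU26 (Sweden) and ZI418NxZI418N (Zambia) and from their F1 hybrid SU26xZI418N. The 4 libraries with 1 copy came from the F1 hybrids SU26xSU58 and SU58xZI418N. The 2 libraries with 2 copies came from SU58xSU58. Each genotype had 2 libraries, which the series describes as biological replicates. All flies were adult females aged 6 days, raised on cornmeal-molasses food at 20 °C under a light phase of 14 h and a dark phase of 10 h, with no transgene or drug treatment named in the labels. Tubules were dissected from the flies, poly-A RNA was selected, and reads were counted per gene. Every library with 1 copy was a hybrid and both libraries with 2 copies were the SU58 line itself, so dose and hybrid status are tied in part. The labels do not say how many flies were pooled for a library.

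Total counts ran between 30834175 and 43479929 per library, and between 10762 and 11139 of 13919 genes had a count. Of the transcripts that mark tubules, salt (1911 to 6099.5 CPM, the count scaled to library size), Uro, which encodes urate oxidase (1373 to 4204 CPM), and the leucokinin receptor gene Lkr (45.4 to 71.2 CPM) were present in all 12 libraries. Transcripts of ovary were highest in 2 libraries. In SU26xZI418N replicate 2 the oocyte genes osk and yl were at 111 and 145 CPM, and in SU58xSU58 replicate 1 the vitelline membrane genes Vm26Aa and Vm26Ab were at 118 and 68.1 CPM. The other 10 libraries had at most 4.15 CPM of osk and at most 0.778 CPM of Vm26Aa. At a lower level, the chorion genes Cp15 and Cp18 were highest in SU26xSU26 replicate 1 (6.44 and 13.4 CPM, with at most 1.69 and 3.56 CPM elsewhere). The 25 listed eggshell and germ line genes summed to 39.8 CPM there and to 40.0 CPM in SU58xZI418N replicate 2. The sums were 432 and 706 CPM in SU58xSU58 replicate 1 and SU26xZI418N replicate 2, and 5.51 to 21.8 CPM in the other 8 libraries. The salivary gland lysozyme gene LysP was at 130.5, 17.2, 24 and 74.2 CPM in 4 libraries that carry a ZI418N genome and near 0 elsewhere. Values without the 2 libraries highest in ovary transcripts are given below for some results only. Calls of other named genes were also weaker without them, so a missing value does not mean no difference.

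Malpighian tubules are the excretory organs of insects. Principal cells drive fluid secretion with a V-type proton pump in the apical membrane, and stellate cells carry chloride and water. The tubule is also a main site of detoxification: cytochrome P450 enzymes oxidise foreign and endogenous compounds, glutathione S-transferases and UDP-glycosyltransferases conjugate them, and membrane transporters export the products. In a hybrid, a difference that lies in the regulatory DNA of a gene acts on its own chromosome copy, so a gene with such a difference is expected midway between its parents, whereas a difference in a diffusible regulator can act on both copies. In bulk RNA, fewer cells of a type and less RNA per cell cannot be told apart. Each library holds whole tubules, so a level is a mean over their cell types.

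SU58 dose was followed by 617 of 9302 tested genes, or 6.63%, in a straight-line fit on the log2 scale (edgeR's quasi-likelihood test, Benjamini-Hochberg adjusted p below 0.05). Of these, 385 genes (4.14%) rose and 232 (2.49%) fell with each added copy. The median slope was 0.61 log2 units per copy among genes that rose and -0.34 among genes that fell. Slopes of at least 1 log2 unit, a 2-fold change per copy, were found for 122 rising and 25 falling genes. All 6 libraries with SU58 lay above all 6 without it for 187 of the rising genes, where 210 of all tested genes (2.26%) had that arrangement. For 54 of the falling genes all 6 libraries with SU58 lay below all 6 without it, against 73 of all tested genes (0.785%). DESeq2 called 566 rising and 543 falling genes, and a fit with ZI418N copies as a second term called 694 rising and 675 falling, so the excess of rising genes depended on the model.

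The count rested on the SU58xSU58 libraries and on treating libraries as the unit. Without SU58xSU58 replicate 1 the fit called 270 genes, 268 of them among the 617, and without replicate 2 it called 278, with 267 shared. Without both libraries that hold ovary transcripts it called 278, with 253 shared. When the counts of each genotype were summed, leaving 6 values per gene, 2 genes passed, CG6184 and CG2065. All 617 slopes kept their sign and 616 had an unadjusted p below 0.05 in edgeR's quasi-likelihood test. The sums hold the same counts that chose the 617 genes, so this is no separate evidence for them. With sums, 1056 genes in all had an unadjusted p below 0.05.

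**Figure D1:**
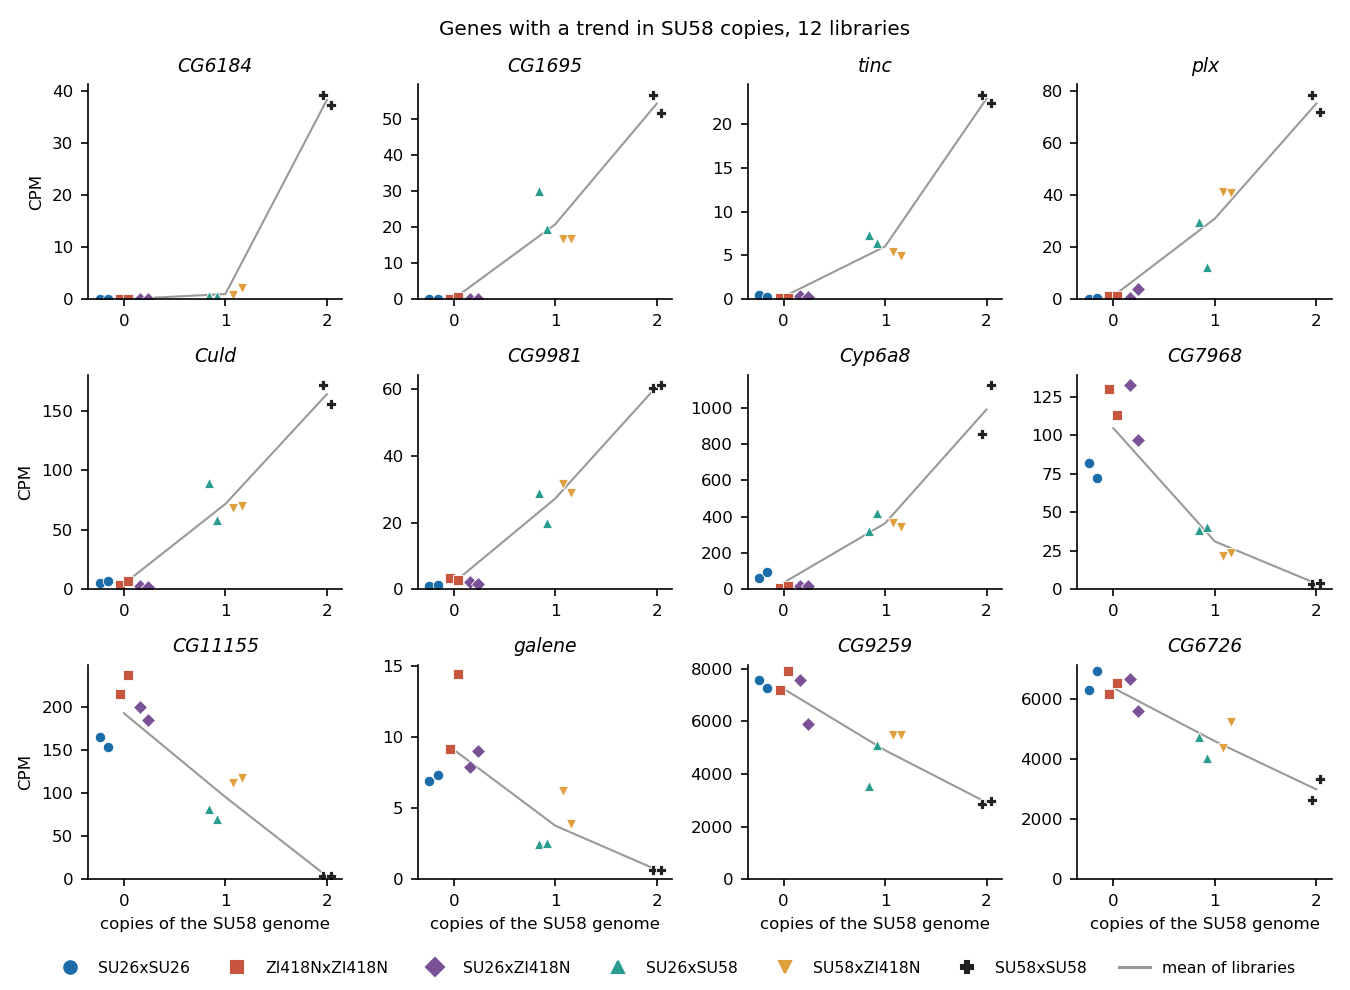
CPM (vertical axes, linear from 0) of 12 genes against SU58 copies (horizontal axes). Each symbol is 1 library, with its genotype given in the legend, and the grey line joins the means of the libraries at 0, 1 and 2 copies. CG6184 stays below 2.2 CPM with 1 copy and reaches 39.3 and 37.3 CPM with 2, whereas Culd and plx have intermediate values with 1 copy.

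Of the rising genes named by rule, those nearly absent without SU58 had the steepest slopes. For the trend, the rule takes only genes whose 6 libraries with SU58 do not overlap the 6 without it. That separation was thus fixed by the choice of genes, rising or falling, and only the order of 1 and 2 copies was free. CG1695 (FBgn0031116, X:20433950-20445599, plus strand, Ensembl BDGP6) had 0.0249 CPM at the lowest, 0.0921 at the median and 0.665 at the highest of the 6 libraries with 0 copies. With 1 copy it had 30.2 and 19.6 CPM in SU26xSU58 and 16.9 and 16.7 CPM in SU58xZI418N, and with 2 copies 56.8 and 51.8 CPM. The 3 dose classes did not overlap, and each 1-copy library was at least 25 times above the highest 0-copy library. The slope was 4.74 ± 0.72 log2 units per copy (SE; edgeR's quasi-likelihood test, adjusted p = 0.00182). For genes near 0 without SU58, as here, the fitted slope depends on the small prior count that the fit adds, and the CPM values carry the comparison.

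The next genes downstream of CG1695 on the X chromosome moved with it. CG42578 (X:20446371-20446703) had no count in any 0-copy library, averaged 0.205 ± 0.193 CPM with 1 copy (SD, n = 4) and had 0.753 and 0.636 CPM with 2. The gene tbc (X:20449331-20467065) averaged 0.206 ± 0.0841 CPM with 0 copies (n = 6) and 2.14 ± 0.767 CPM with 1 copy (n = 4), and had 6.86 and 5.47 CPM with 2 copies. The 3 genes lie on the same strand within 33.1 kb, and reads that run on past the end of CG1695 would be counted in the genes after it; that was not tested.

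CG6184 (FBgn0038725, 3R:19652369-19657866) had the lowest adjusted p of the rising genes named here and a different shape. It was between 0.0269 and 0.0991 CPM with 0 copies, with a median of 0.0537. With 1 copy it had 0.577 and 0.611 CPM in SU26xSU58 and 0.788 and 2.15 CPM in SU58xZI418N, and with 2 copies 39.3 and 37.3 CPM. The classes did not overlap, but the 1-copy mean lay only 2.54% of the way between the 0-copy and 2-copy means in CPM. On the log2 scale the slope was 4.74 ± 0.24 (adjusted p = 7.13e-07, edgeR's quasi-likelihood test). The departure of the 1-copy libraries from the line was -0.55 ± 0.44 (adjusted p = 1, same test). A departure that does not pass does not show that the line held.

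Culd, santa-maria and tinc, 3 of the named risers, encode membrane proteins. Culd (FBgn0035880) encodes a transmembrane protein with CUB and LDL-receptor domains. It ranged between 1.99 and 7.29 CPM with 0 copies (median 4.56), had 89.8, 58.2, 68.6 and 70.5 CPM with 1 copy, and 172 and 156 CPM with 2. Its mean was 15.2 times the 0-copy mean with 1 copy and 34.9 times with 2, its slope was 2.97 ± 0.35 (adjusted p = 0.000447, edgeR's quasi-likelihood test), and the classes did not overlap. santa-maria, a scavenger receptor of the CD36 family that takes up carotenoids, had at most 1.82 CPM with 0 copies, 16.9, 6.89, 11.5 and 4.65 CPM with 1, and 18.6 and 25.1 CPM with 2. Its hybrid replicates spread widely, and their separation from the 0-copy range was a condition of the rule that named it. The transmembrane protein gene tinc had at most 0.463 CPM with 0 copies, between 4.93 and 7.36 CPM with 1, and 23.3 and 22.4 CPM with 2 (slope 3.37 ± 0.28).

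Among the remaining strong risers, plx had a median of 0.918 CPM with 0 copies, 29.7, 12.4, 41.1 and 40.7 CPM with 1, and 78.4 and 71.7 CPM with 2. CG9981 had between 1.02 and 3.43 CPM with 0 copies, 28.7, 19.8, 31.4 and 28.7 CPM with 1, and 60.1 and 61.2 CPM with 2. Both were close to proportional to dose, with the 1-copy mean at 40.2% and 42.8% of the way between the outer classes. CG12268 was uneven with 1 copy: SU26xSU58 replicate 2 had 21.5 CPM, above both SU58xSU58 libraries (9.58 and 8.74 CPM), while the other 1-copy libraries had between 3.48 and 5.45 CPM. CG3635 and CG4927, which had medians of 0.124 and 1.31 CPM with 0 copies, reached 11.8 and 9.22 CPM and 36.8 and 36.3 CPM in SU58xSU58. CG15772 reached 16.2 and 17.4 CPM there against a 0-copy median of 0.372, but 38.6% of its exon length is shared with lin-52, and reads of the 2 genes may be split between them.

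Outside the rule that picked these genes, 3 were added after their values were seen because their replicates were tight. Dph1 (3L:11693879-11696963), which encodes an enzyme of diphthamide synthesis on elongation factor 2, had between 12.8 and 19.1 CPM with 0 copies (median 16), 67.3, 71, 70.9 and 71.9 CPM with 1, and 125 and 127 CPM with 2. The 1-copy values of the 2 backgrounds were almost equal. SPR, the sex peptide receptor gene, had between 1.48 and 2.66 CPM with 0 copies, 12, 12.4, 8.24 and 7.59 CPM with 1, and 23.2 and 28 CPM with 2. The heparin-binding growth factor gene miple2 had between 3.15 and 9.3 CPM with 0 copies, 21, 22.1, 13.2 and 14.2 CPM with 1, and 34.5 and 31.9 CPM with 2. The slopes were 1.65 ± 0.13, 1.92 ± 0.14 and 1.32 ± 0.17 for Dph1, SPR and miple2 (adjusted p = 2.59e-05, 1.46e-05 and 0.000745, edgeR's quasi-likelihood test).

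The steepest fallers named by rule, which asks for a genotype mean of at least 10 CPM, were expressed in all genotypes without SU58. CG7968 (FBgn0028532, 2L:13849400-13850329) had between 72.4 and 133 CPM with 0 copies (median 105), 38.8, 40.7, 21.4 and 23.7 CPM with 1, and 3.44 and 4.2 CPM with 2. The classes did not overlap, and the slope was -2.21 ± 0.21 (adjusted p = 9.88e-05, edgeR's quasi-likelihood test). CG11155 (FBgn0039927, chromosome 4), a kainate-type ionotropic glutamate receptor gene, had between 154 and 238 CPM with 0 copies (median 193), 82.4, 70.7, 112 and 118 CPM with 1, and 3.87 and 3.69 CPM with 2. The 1-copy mean was 2.02 times below the 0-copy mean, and the 2-copy mean 51.1 times below it. In CPM this places the hybrids 51.4% of the way to SU58. The log2 slope was -2.13 ± 0.43 (adjusted p = 0.0106, edgeR's quasi-likelihood test), and without SU58xSU58 replicate 1 or replicate 2 the adjusted p was 0.0536 or 0.0501. The other 23 of the 24 genes named for the trend by rule kept an adjusted p below 0.05 without any 1 library.

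Smaller falls included some of the most abundant transcripts. CG9259 had between 5910.0 and 7905 CPM with 0 copies (median 7416), 3551, 5104, 5479.8 and 5477 CPM with 1, and 2872 and 2975 CPM with 2, a slope of -0.63 ± 0.08 (adjusted p = 0.00052, edgeR's quasi-likelihood test). CG6726 had between 5621 and 6949 CPM with 0 copies, between 4034 and 5263 CPM with 1, and 2659.8 and 3343 CPM with 2, although 96.3% of its exon length is shared with CG17110 and the 2 genes cannot be told apart by position. galene had a 0-copy median of 8.43 CPM, 2.49, 2.53, 6.18 and 3.91 CPM with 1 copy, and 0.672 and 0.699 CPM with 2. CG43750 had between 8.46 and 11.8 CPM with 0 copies, between 5.85 and 7.73 CPM with 1, and 2.29 and 2.1 CPM with 2. Ugt37A3, CG14856, CG31676, Cyp6a17, CG42553 and CG32024 fell with slopes between -0.84 and -0.48. Cyp6a17 encodes a P450 with a known part in temperature preference. It had between 89.8 and 113 CPM with 0 copies, 88.4, 80.5, 79.7 and 75.4 CPM with 1, and 50.7 and 32.4 CPM with 2.

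For most genes that differed at least 2-fold between SU58 and the mean of the other parental lines, the 1-copy hybrids lay near the middle of the CPM range. Some of these genes, such as CG12910, FBgn0036125 and mthl9, set SU26 or ZI418N apart rather than SU58, as given below. For such genes the position does not measure SU58 dose. Among 618 genes that differed at least 2-fold between SU58 and the mean of the other parental lines, the 1-copy mean stood at a median of 46.4% of the way between the 0-copy and 2-copy means (quartiles 33.9% and 63.1%). The median was 45.5% for 395 genes higher in SU58 and 49.7% for 223 genes lower in SU58. Between 25% and 75% of the way lay 448 of the 618 genes, 68 lay between 0% and 25%, 50 between 75% and 100%, 27 below 0% and 25 above 100%. On log2 levels these medians were 57.3% and 37.7%. Genes were chosen on the parental libraries, which also enter the means at both ends of the scale, so these shares are a description. Without SU26xSU58 replicate 1 or replicate 2 the overall median was 42.7% or 50.9%.

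**Figure D2:**
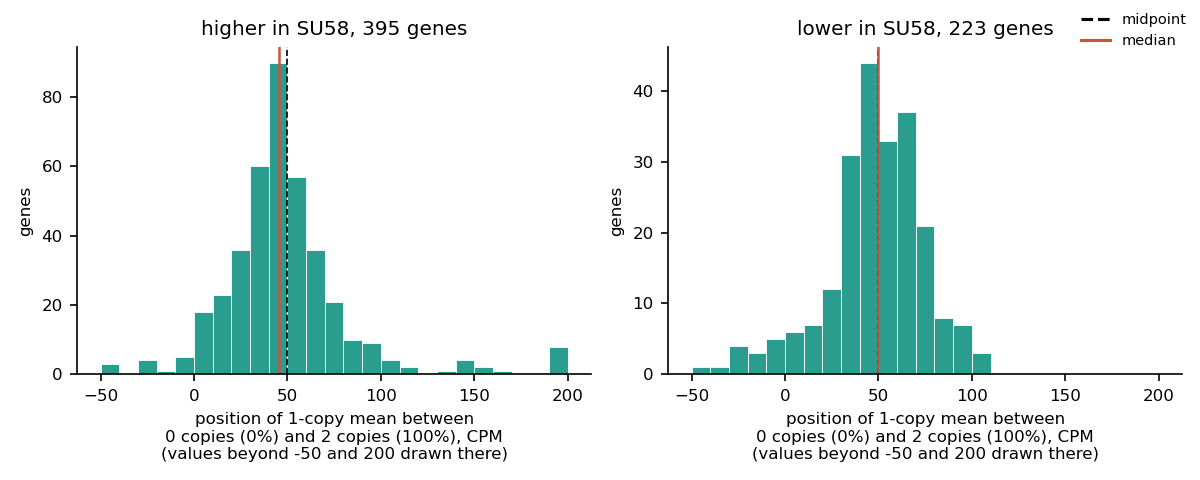
Number of genes (vertical axes) by the position of the 1-copy mean between the 0-copy mean (0%) and the 2-copy mean (100%) in CPM, for 395 genes higher (left) and 223 genes lower (right) in the SU58 line. The dashed line marks the midpoint and the red line the median (45.5% left, 49.7% right); values beyond the ends of the axis are drawn at its ends.

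A departure from a straight log2 line was found for 4 genes (0.043% of those tested; 125 had an unadjusted p below 0.05 in edgeR's quasi-likelihood test, and DESeq2 called 17). All 4 had 1-copy libraries above the line: CG11155, CG15772, Ldsdh1 and Ir56c. Ldsdh1, a lipid droplet dehydrogenase gene, had between 19.1 and 31.8 CPM with 0 copies (median 23.6), 19.3, 23.4, 22.4 and 25.5 CPM with 1, and 2.21 and 1.75 CPM with 2. The hybrids thus lay within the 0-copy range and only the SU58 line stood apart (departure 1.70 ± 0.14 log2 units, adjusted p = 0.00083, edgeR's quasi-likelihood test). Ir56c, an ionotropic receptor gene, had between 2.55 and 3.6 CPM with 0 copies, 9.85, 8.53, 10.8 and 12 CPM with 1, and 7.93 and 7.44 CPM with 2. All 4 libraries with 1 copy were above both with 2, and the departure was 1.09 ± 0.13 (adjusted p = 0.00686, edgeR's quasi-likelihood test). Without SU58xSU58 replicate 1 or replicate 2 the calls of CG15772 (adjusted p = 0.217 or 0.174) and Ir56c (0.121 or 0.167) were lost, and without both libraries that hold ovary transcripts 1 gene departed.

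The parental lines and the hybrids share no library and were also fitted apart. In the 6 parental libraries, 1667 of 9043 genes (18.4%) differed between SU58 and the mean of SU26 and ZI418N, 903 of them higher (9.99%) and 764 lower (8.45%) in SU58. In the 6 hybrid libraries, 66 of 9062 genes (0.728%) differed between the mean of SU26xSU58 and SU58xZI418N and the hybrid without SU58, SU26xZI418N, 54 higher (0.596%) and 12 lower (0.132%). Of genes tested in both fits, 58 were called in the same direction, 50 higher and 8 lower with SU58, and 0 in opposite directions. They made up 3.55% of the parental calls and 87.9% of the hybrid calls. The hybrid difference had the sign of the parental difference for 1285 of 1635 parental calls (78.6%), against 60.0% of all genes tested in both.

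If each copy added the same log2 amount, the hybrid difference would be 0.5 of the parental one. For 586 parental calls of at least 2-fold, the median ratio was 0.41, and 483 of them (82.4%) had the same sign. These genes were chosen for a large parental difference, by which the ratio divides, and that choice can lower the ratio below 0.5. The median also pools genes higher and lower in SU58, so it is a description. Across the 1635 parental calls the correlation of the differences was 0.62, a description across genes, which are not independent. Without both libraries that hold ovary transcripts the sign was shared by 398 of 422 calls (94.3%), against 62.1% of all genes, and the median ratio was 0.46.

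The hybrid count was set by the libraries in the fit. It was 1267 without SU26xZI418N replicate 1, 16 without SU26xZI418N replicate 2, 4 and 7 without SU26xSU58 replicates 1 and 2, and 2 without either SU58xZI418N library. The counts called in both fits were then 238, 15, 4, 6, 2 and 2. The parental count was 423 and 482 without SU58xSU58 replicates 1 and 2. With both replicates, 1794 genes had an unadjusted p below 0.05 in the hybrid fit.

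**Figure D3:**
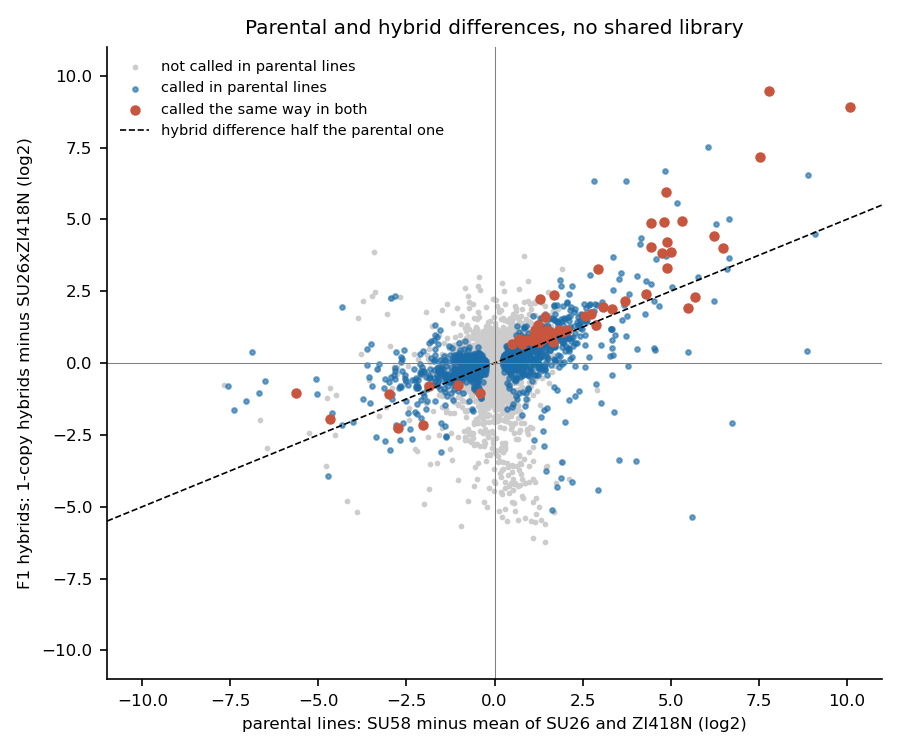
log2 difference between hybrids with 1 SU58 copy and SU26xZI418N (vertical axis) against the log2 difference between SU58 and the mean of SU26 and ZI418N in parental lines (horizontal axis). Each point is a gene tested in both fits, red points are the 58 genes called in the same direction in both, and the dashed line marks a hybrid difference of 0.5 of the parental one. The grey cloud far below 0 holds genes that are low in the 1-copy hybrids relative to SU26xZI418N and not called in the parental lines; replicate 2 of SU26xZI418N is the library with 111 CPM of osk.

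Named by the smaller of the 2 differences, the top genes called in both fits were CG1695, CG15772, Culd, santa-maria and loaf, higher with SU58, and FBgn0036125, CG12910, CG7968, CG16898 and CG11155, lower with SU58. loaf was 4.45 ± 0.16 log2 units higher in SU58 than in the mean of the other parental lines and 4.86 ± 0.50 higher in the 1-copy hybrids than in SU26xZI418N (adjusted p = 2.13e-05 and 0.034, edgeR's quasi-likelihood test). Its CPM values were at most 1.36 with 0 copies, between 2.77 and 6.94 with 1, and 14.1 and 17.2 with 2. Without SU26xZI418N replicate 2 the hybrid call of loaf was lost (adjusted p = 0.0922), as it was without any 1 library of SU26xSU58 or SU58xZI418N (0.131 to 0.15). Of the 10 genes, CG1695 alone kept its hybrid call without any 1 library; Culd lost it without 2 of the 6 hybrid libraries in turn and the others without 4 or 5 (adjusted p up to 0.194). Not all of these genes followed dose. CG12910 was low in SU58 (1.86 and 2.16 CPM) and low in ZI418N (1.42 and 1.38 CPM), and SU26 stood apart with 48.8 and 44.9 CPM. FBgn0036125, for which the reference holds no name, was low in SU58 (0.323 and 0.254 CPM) and low in SU26 (0.33 and 0.23 CPM), and ZI418N stood apart with 15.7 and 11.7 CPM. The trend over all 12 libraries did not pass for either (adjusted p = 0.319 and 0.259, edgeR's quasi-likelihood test). CG16898 had 413 and 501 CPM in SU58xZI418N, near the 500.1 and 414 CPM of SU26xZI418N. SU26xSU26, without SU58, was lower at 267 and 382 CPM. The trend call of CG16898 was lost without any of 7 of the 12 libraries in turn.

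The first SU58 copy could be read in 2 backgrounds that share no library. Replacing a SU26 genome (SU26xSU58 minus SU26xSU26) changed 422 of 9302 genes (4.54%), 213 up (2.29%) and 209 down (2.25%). Replacing a ZI418N genome (SU58xZI418N minus ZI418NxZI418N) changed 321 genes (3.45%), 247 up (2.66%) and 74 down (0.796%). The steps were called in the same direction for 88 genes, 76 up and 12 down, which is 20.9% of the calls in the SU26 background and 27.4% of those in the ZI418N background, and in opposite directions for 9. Dph1, for example, was 2.34 ± 0.11 log2 units higher in SU26xSU58 than in SU26xSU26, and 2.14 ± 0.10 higher in SU58xZI418N than in ZI418NxZI418N (adjusted p = 1.49e-05 and 1.33e-05, edgeR's quasi-likelihood test).

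These counts moved by over 1.5 times when single libraries were left out. The count in the SU26 background was 178 and 166 without SU26xSU26 replicates 1 and 2, 114 and 224 without those of SU26xSU58, and 233 and 229 without those of SU58xSU58. In the ZI418N background it was 122 and 135 without ZI418NxZI418N replicates 1 and 2, 133 and 129 without those of SU58xZI418N, and 202 and 201 without those of SU58xSU58. The count called in the same direction lay between 40 and 55 without any 1 library of SU26xSU26, SU58xSU58, ZI418NxZI418N, SU26xSU58 or SU58xZI418N.

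The step from 0 to 1 copy differed between backgrounds for 147 genes (1.58%). The more positive step was in the SU26 background for 41 (0.441%) and in the ZI418N background for 106 (1.14%). Each step also removes a copy of a different line, SU26 or ZI418N. A difference between those 2 lines can thus make the steps differ, and the test cannot separate it from a changed effect of SU58. Of the 147 genes, 11 (7.48%) were among the 617 genes with a dose trend, close to the 6.63% of all tested genes. mthl9, a receptor gene of the methuselah family, had 92.6 and 92 CPM in SU26xSU58 and 109 and 94.6 CPM in SU26xSU26, but 32.8 and 34.1 CPM in SU58xZI418N and 0.88 and 1.14 CPM in ZI418NxZI418N. The steps were -0.14 ± 0.11 and 5.05 ± 0.14 log2 units, and their difference was -5.19 ± 0.18 (adjusted p = 2.36e-06, edgeR's quasi-likelihood test). In SU58xSU58 it had 82.2 and 81.7 CPM, so ZI418N was the line that stood apart. Rh50, a Rhesus-type ammonium transporter gene, CG9701, Cyp12d1-d and CG14957 were likewise below 9 CPM in both ZI418NxZI418N libraries and above it in all SU26xSU26 libraries. Cyp12d1-d has a near-identical neighbouring copy, Cyp12d1-p, and its counts depend on how shared reads were assigned.

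Steps of opposite sign were seen for Ace and chinmo. Ace, the acetylcholinesterase gene, had 29.8 and 28.7 CPM in SU26xSU58 and 6.94 and 8.15 CPM in SU26xSU26, a step of 1.95 ± 0.21. It had 40.4 and 44.6 CPM in SU58xZI418N and 101 and 63.2 CPM in ZI418NxZI418N, a step of -0.95 ± 0.19 that did not pass without any of 7 libraries in turn (adjusted p up to 0.199). The steps differed by 2.90 ± 0.28 (adjusted p = 0.00154, edgeR's quasi-likelihood test). chinmo, a BTB zinc finger transcription factor gene, had 41 and 53.6 CPM in ZI418NxZI418N and between 3.93 and 17.8 CPM in all other libraries, and its steps differed by 3.02 ± 0.25 (adjusted p = 0.000591). Its step in the SU26 background, 0.82, did not pass without any of 6 libraries in turn (adjusted p up to 0.198). CG31683, CG9664 and CG31997 were at most 3.83 CPM in SU26xSU26 and at least 17.1 CPM in ZI418NxZI418N, and also had the more positive step in the SU26 background. The differences of CG31683 and CG31997 did not pass without SU26xSU26 replicate 2 (adjusted p = 0.0506 and 0.0531), that of CG31997 also not without SU58xZI418N replicate 1 (0.0564), and that of Rh50 not without either SU26xSU58 library (0.0534 and 0.0541) or ZI418NxZI418N replicate 2 (0.0556). The count of 147 was 90 without SU26xSU26 replicate 2, 81 and 78 without SU26xSU58 replicates 1 and 2, 77 without either SU58xSU58 library, 63 and 69 without SU58xZI418N replicates 1 and 2, and 54 and 96 without ZI418NxZI418N replicates 1 and 2.

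**Figure D4:**
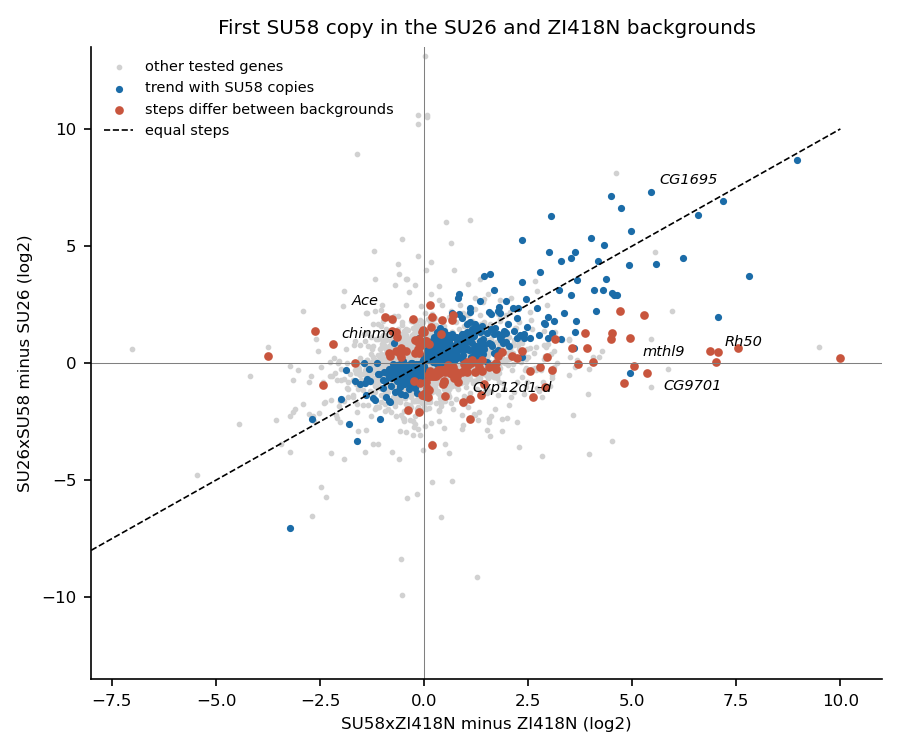
log2 step from 0 to 1 SU58 copy in the SU26 background (vertical axis) against that in the ZI418N background (horizontal axis), 1 point per tested gene. The steps are SU26xSU58 minus SU26xSU26 and SU58xZI418N minus ZI418NxZI418N, so each also removes a copy of a different line. Blue points have a trend with SU58 copies, red points have steps that differ between backgrounds, and the dashed line marks equal steps. CG1695 lies far out in both backgrounds, whereas Rh50, CG9701 and mthl9 lie far out in the ZI418N background and near 0 in the SU26 background.

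Cytochrome P450 genes changed in both directions. Of 69 tested members 13 rose and 6 fell with SU58 dose, 27.5% against 6.63% of all genes, and the median slope was 0.16 against -0.03 for all genes. Without SU58xSU58 replicate 1, 5 rose and 3 fell. Cyp6a8, which has been linked to insecticide resistance, had between 10.6 and 93.6 CPM with 0 copies (median 19.2), 321 and 422 CPM in SU26xSU58, 366 and 345 CPM in SU58xZI418N, and 853 and 1126 CPM with 2 copies. Its mean was 9.77 times the 0-copy mean with 1 copy and 26.6 times with 2, with no overlap of classes, and the slope was 2.62 ± 0.39 (adjusted p = 0.0015, edgeR's quasi-likelihood test). The log2 step was 4.70 ± 0.29 in the ZI418N background and 2.24 ± 0.26 in the SU26 background. The 2 hybrids had similar levels and the starting lines differed, with 63.8 and 93.6 CPM in SU26xSU26 and 10.6 and 16.8 CPM in ZI418NxZI418N. The difference between the steps passed (adjusted p = 0.0117, edgeR's quasi-likelihood test). It did not pass without SU26xSU58 replicate 1, SU58xZI418N replicate 1 or ZI418NxZI418N replicate 1.

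The most abundant riser of the family was Cyp6g1, known for its part in DDT resistance and named here after its values were seen. It had between 4440.1 and 8618 CPM with 0 copies (median 5465), 8038, 9424, 8197 and 9049.6 CPM with 1, and 11949 and 10555 CPM with 2. The highest 0-copy library, SU26xSU26 replicate 2, overlapped the 1-copy class. The slope was 0.48 ± 0.09 (adjusted p = 0.00905, edgeR's quasi-likelihood test), and the adjusted p was 0.0626 without SU58xSU58 replicate 1, the 1 library on which the call depended. Cyp28d2, at a lower level, had between 0.835 and 1.62 CPM with 0 copies, between 1.67 and 2.15 CPM with 1, and 3.39 and 4.1 CPM with 2. Among the members that fell, Cyp6a14 had between 93 and 133 CPM with 0 copies, 68.7, 62.8, 93.6 and 92.1 CPM with 1, and 26.8 and 25.8 CPM with 2. Summed over the family, CPM lay between 11941 and 17709 with 0 copies, between 16360.1 and 19588 with 1, and at 22593 and 21351 with 2. A large part of this sum was Cyp6g1 alone, which averaged 5956, 8677 and 11252 CPM at 0, 1 and 2 copies.

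UDP-glycosyltransferase genes mostly had positive slopes. Of 29 tested members 6 rose and 1, Ugt37A3, fell (24.1% called, against 6.63% of all genes). A slope above 0 was found for 23 members, and the median of the family was 0.26. Of all 9302 tested genes, 3840 had a slope above 0 and 5462 below. Without SU58xSU58 replicate 1 the counts were again 6 and 1. Ugt304A1 had between 10.2 and 14.4 CPM with 0 copies, 20.7, 15.5, 24.9 and 23.6 CPM with 1, and 32.2 and 38.3 CPM with 2 (slope 0.76 ± 0.08, adjusted p = 0.000159, edgeR's quasi-likelihood test). Ugt50B3 had at most 1.44 CPM with 0 copies, between 3.78 and 5.41 CPM with 1, and 5.65 and 8.87 CPM with 2. The neighbours Ugt303B3, Ugt303B1 and Ugt303B2 on 3R rose together, and Ugt303B3, the most abundant of them, averaged 114 ± 21.4 CPM with 0 copies and 223 ± 83 with 1, and had 347 and 349.8 CPM with 2. The summed CPM of the family, 2746 to 3194 with 0 copies, 3237 to 3971 with 1 and 4258 and 4337 with 2, did not overlap between classes. Much of the sum came from Ugt35B1 (means of 1165, 1451 and 1628 CPM at 0, 1 and 2 copies) and Ugt35C1 (454, 659.8 and 925 CPM). Neither had a trend call (adjusted p = 0.0878 and 0.0753, edgeR's quasi-likelihood test).

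Glutathione S-transferase genes were mixed, with 2 rising and 4 falling of 29 (20.7%, against 6.63% of all genes). GstT1, the falling member that the rule names, averaged 51.2, 42.3 and 34.4 CPM at 0, 1 and 2 copies. GstE6 had between 36.8 and 72.4 CPM with 0 copies, 102, 118, 87.9 and 98.7 CPM with 1, and 136 and 154 CPM with 2. Its neighbour in the same cluster, GstE7, which the naming rule does not pick, had between 55.5 and 185 CPM with 0 copies. It had 35.7, 53, 98.9 and 69.8 CPM with 1, and 22.6 and 17.6 CPM with 2. The slopes of the pair, 0.80 ± 0.11 and -1.19 ± 0.23, were opposite in sign (adjusted p = 0.00125 and 0.00804, edgeR's quasi-likelihood test); the GstE7 call was lost without SU58xSU58 replicate 1 or replicate 2 (adjusted p = 0.0597 or 0.0638). GstZ2 and hgo, enzymes of tyrosine breakdown, both rose. GstZ2 had between 6.31 and 9.66 CPM with 0 copies, between 14.4 and 19.2 CPM with 1, and 20.0 and 22 CPM with 2. hgo had at most 2.68 CPM with 0 copies, 10.1, 9.04, 2.31 and 2.33 CPM with 1, and 16.6 and 16.3 CPM with 2, and its call was lost without SU58xSU58 replicate 1 or 2 (adjusted p = 0.119 or 0.113) or SU26xZI418N replicate 1 (0.0569).

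Glutathione synthesis had members on both sides. The neighbouring glutathione synthetase genes Gss1 and Gss2 (X:17889547-17906025) rose. Gss1 had between 169 and 331 CPM with 0 copies, 529.6, 613, 459 and 471 CPM with 1, and 813 and 837 CPM with 2. Gss2 had between 205 and 262 CPM with 0 copies, 423, 453, 453 and 469.8 CPM with 1, and 664 and 659 CPM with 2, so no class overlapped for either gene. The slopes were 0.94 ± 0.11 and 0.81 ± 0.06 (adjusted p = 0.00052 and 1.44e-05, edgeR's quasi-likelihood test). Both genes are similar in sequence and their counts may share reads. Gclc, the catalytic subunit of the enzyme for the preceding step, fell: it had between 501 and 783 CPM with 0 copies, 572, 483, 379 and 516 CPM with 1, and 396 and 399 CPM with 2 (slope -0.34 ± 0.09, adjusted p = 0.0353, edgeR's quasi-likelihood test). The Gclc call was lost without any of 7 of the 12 libraries in turn, with an adjusted p of up to 0.15.

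Of 24 tested transporter genes for organic solutes and metals, 1 rose and 4 fell (20.8%), and without SU58xSU58 replicate 1 none rose and 2 fell. The share called of all tested genes was 6.63%. The organic anion transporter genes Oatp58Db and Oatp58Da had small, even falls. Oatp58Db had between 1556 and 1839 CPM with 0 copies, between 1302 and 1472 CPM with 1, and 1140.0 and 1119 CPM with 2 (slope -0.30 ± 0.04, adjusted p = 0.000845, edgeR's quasi-likelihood test). Oatp58Da had between 770.1 and 951 CPM with 0 copies, between 655 and 769 CPM with 1, and 564 and 569 CPM with 2. The organic cation transporter gene Orct and the ABC transporter gene MRP also fell, with means of 104 and 928 CPM with 0 copies, 78.6 and 688 CPM with 1, and 45.8 and 492 CPM with 2; the Orct call was lost without SU58xSU58 replicate 1 or 2 (adjusted p = 0.0533 or 0.0501), and the MRP call without any of 7 libraries (up to 0.157). Mdr49, another ABC transporter gene, rose, with means of 432, 588 and 772 CPM at 0, 1 and 2 copies (adjusted p = 0.0182; 0.065 and 0.108 without SU58xSU58 replicates 1 and 2).

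Of 22 V-ATPase subunit genes, which build the proton pump, 2 rose (9.09%, against 6.63% of all genes), and the median slope was -0.03. VhaM9.7-b had between 385 and 489 CPM with 0 copies, between 521 and 564 CPM with 1, and 632 and 645 CPM with 2 (slope 0.25 ± 0.04, adjusted p = 0.00197, edgeR's quasi-likelihood test). Vha36-3 was at 1.75 CPM or below throughout, and its call was lost without SU58xSU58 replicate 2 (adjusted p = 0.0678). Of 25 genes of ion and water transport, Eglp2, an aquaglyceroporin gene, fell and bib rose (8% called). Eglp2 had between 344 and 461 CPM with 0 copies, between 286 and 359 CPM with 1, and 233 and 231 CPM with 2. The bib call, at 1.49 CPM or below, was lost without SU58xSU58 replicate 1 or 2 (adjusted p = 0.0559 or 0.127). No call was made among 15 receptor genes for diuretic hormones and amines or among 9 principal cell markers. Best2, a bestrophin-type chloride channel gene, was the 1 called of 11 stellate cell markers: it had between 18.7 and 26.6 CPM with 0 copies, 33.1, 25.5, 28.7 and 20.1 CPM with 1, and 48.7 and 43.3 CPM with 2. Its adjusted p was 0.055 without both libraries that hold ovary transcripts.

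Juvenile hormone epoxide hydrolases rose as a cluster. Of 18 genes of juvenile hormone and ecdysone turnover 4 rose and 0 fell (22.2%, against 6.63% of all genes). The adjacent genes Jheh1, Jheh2 and Jheh3 were 3 of the 4. Jheh2 had between 83.9 and 139.9 CPM with 0 copies (median 96), 195, 181, 147 and 163 CPM with 1, and 261 and 273 CPM with 2 (slope 0.71 ± 0.08, adjusted p = 0.00024, edgeR's quasi-likelihood test). Jheh1 had between 63.1 and 144 CPM with 0 copies, 143, 124, 112 and 124 CPM with 1, and 211 and 255 CPM with 2, with SU26xSU26 replicate 2 overlapping the hybrids. Jheh3 had between 44.1 and 68 CPM with 0 copies, between 67.9 and 103 CPM with 1, and 117 and 111 CPM with 2. A further annotated gene, FBgn0287616, shares 100%, 91.6% and 49.5% of the exon length of Jheh1, Jheh2 and Jheh3, and counts of the 3 may depend on it. The fourth, gce, a juvenile hormone receptor gene, had a slope of 0.18 ± 0.04 (adjusted p = 0.0346, edgeR's quasi-likelihood test), and its call was lost without either SU58xSU58 library (0.134 and 0.0639), without SU26xZI418N replicate 1 (0.0682) and without either SU58xZI418N library (0.0504 and 0.0528).

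Immune and stress genes had 1 to 3 calls in each list, where 6.63% of all genes were called. Of 18 antimicrobial peptide and peptidoglycan recognition genes, PGRP-LA rose and imd and AttC fell (16.7%). imd, the adaptor of the pathway that bears its name, had between 14 and 18.2 CPM with 0 copies, between 11.1 and 14.5 CPM with 1, and 7.93 and 7.44 CPM with 2 (slope -0.48 ± 0.07, adjusted p = 0.0015, edgeR's quasi-likelihood test). The deposited counts of imd and Ir56c, which share no exon, are the same in both SU58xSU58 libraries and in SU58xZI418N replicate 2, and differ in the other 9 libraries. PGRP-LA had between 10.8 and 20.5 CPM with 0 copies, between 18.9 and 22.8 CPM with 1, and 27.9 and 28 CPM with 2, and its adjusted p was 0.052 without both libraries that hold ovary transcripts. Of 26 heat shock and Turandot genes 1, Hsp26, fell (3.85%), and 22 had a negative slope, as did 5462 of all 9302 genes. Hsp26 had between 6.21 and 143 CPM with 0 copies, 6.95, 22.8, 8.21 and 14.2 CPM with 1, and 7.69 and 7.54 CPM with 2, so the 0-copy class spanned the others. The Hsp26 call was lost without any of 10 of the 12 libraries in turn (adjusted p up to 0.157), and the AttC call without any of 9 (up to 0.168). Of 18 metallothionein and antioxidant genes, Sod3 rose and Gclc fell (11.1%), and the Sod3 call was lost without any of 8 libraries (adjusted p up to 0.15).

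Housekeeping groups had median slopes close to 0. Of all 9302 genes, 3840 had a slope above 0, 5462 had a slope below 0, and 6.63% were called. Cytosolic ribosomal protein genes had 78 of 86 slopes above 0, a median of 0.07, and 4 calls, all rising (4.65%), of which 1 remained without SU58xSU58 replicate 1. RpL5, the strongest, had between 1741 and 2044 CPM with 0 copies, 2362, 2098, 2640.1 and 2377 CPM with 1, and 2731 and 2714 CPM with 2 (slope 0.28 ± 0.05, adjusted p = 0.00352, edgeR's quasi-likelihood test). Proteasome genes had 29 of 32 slopes below 0 with a median of -0.06, and oxidative phosphorylation genes a median of -0.004 over 75. No member of either list was called, and none of 13 circadian clock genes or of 19 genes of purine, tryptophan and eye pigment metabolism. None of the 13 genes of the mitochondrial genome was called.

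Eggshell and germ line markers moved with single libraries. The share called of all tested genes was 6.63%. Of 20 eggshell and germ line genes 5 rose and 1 fell (30.0%), and none was called without SU58xSU58 replicate 1. Vm26Aa had 118 and 0 CPM in the SU58xSU58 libraries and at most 0.778 CPM in any other. Muscle markers had 2 of 24 called, Zasp52 and Mlc2 (8.33%, close to the share of all genes). Neuronal and photoreceptor markers had 2 of 8 called, nSyb and Syt1 (25%). All of these rose. nSyb, a synaptic vesicle gene, was higher in all 6 libraries with SU58 than in all 6 without: it had between 1.02 and 3.23 CPM with 0 copies, 5.52, 5.88, 3.36 and 3.89 CPM with 1, and 5.41 and 8.33 CPM with 2 (slope 0.96 ± 0.20, adjusted p = 0.0134, edgeR's quasi-likelihood test), while elav was between 12 and 18.9 CPM in all libraries and ninaE at 1.07 CPM or below. No member of the gut, salivary gland, fat body or hemocyte lists was called. Zasp52, Mlc2 and Syt1 lost their calls without SU58xSU58 replicate 1 (adjusted p = 0.087, 0.168 and 0.168) and also without replicate 2 (0.0645, 0.187 and 0.121), and nSyb lost its call without replicate 2 (0.0892). Mlc2 further lost its call without 1 other library and Syt1 without 4 others. The part of these tissues in the dose trends of other genes was not tested beyond the values given without the 2 libraries.

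**Figure D5:**
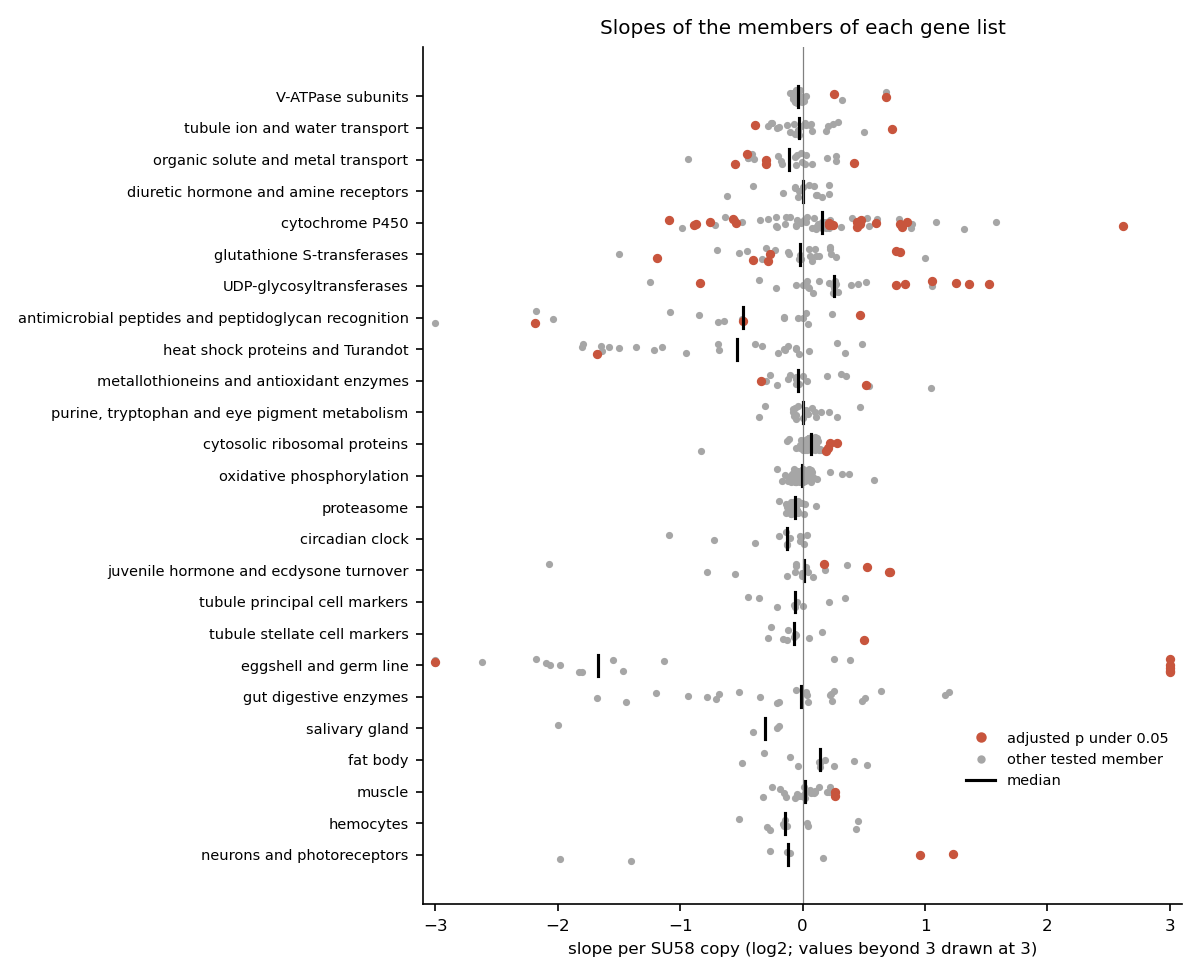
Slope per SU58 copy in log2 units (horizontal axis) of each tested member of 25 gene lists (rows). Red points are members with adjusted p below 0.05, grey points are other members, black bars are list medians, and values beyond 3 in either direction are drawn at the ends. Ribosomal protein genes sit just above 0 and proteasome genes just below it, whereas P450 and UDP-glycosyltransferase genes hold called members well away from 0.

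Genes with a dose trend were found on every chromosome arm. The share called was 5.38% on X, 7.29% on 2L, 7.11% on 2R, 6.09% on 3L, 6.95% on 3R and 10.3% on chromosome 4, where 68 genes were tested. Of 609 called genes with coordinates, 120 (19.7%) had an adjacent tested gene called in the same direction, and 10 runs of 3 adjacent genes were seen, of which 5 had all members called without SU58xSU58 replicate 1. Of all tested genes 4.14% rose and 2.49% fell. The share of like neighbours and the number of runs to be had without clustering were not worked out, so these counts are a description. Besides CG1695 to tbc, the Jheh and the Ugt303B genes, the runs included Pldn, CG14135 and Dph1 on 3L, with slopes of 0.57 ± 0.07, 0.76 ± 0.09 and 1.65 ± 0.13. CG6788, Gss1 and Gss2 on X had slopes of 1.63 ± 0.39, 0.94 ± 0.11 and 0.81 ± 0.06. The only falling run held CG30278 and the Oatp58Da and Oatp58Db genes on 2R. The runs with Gss1 and with Oatp58Da were among those not fully called without that library. Overlapping transcripts can place reads of a gene on its neighbour, and the strand setting of the counting is unknown here.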

How the data were processed

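RNA of 12 libraries was analysed from the counts per gene that the authors deposited. Per the file headers these are read counts beside a gene identifier, CG number, chromosome and length, and the values are whole numbers with no normalization. Per the labels' protocols, paired reads of 125 bases were sequenced. Which aligner, counting tool, strand setting and genome build were used is not given in the sources used here. Of 13919 identifiers, 13749 were named by the reference table and 146 through their CG number, and 24 had no name; coordinates are those of Ensembl BDGP6.

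Genes were filtered with filterByExpr, scaled by TMM and fitted with edgeR 4.0.16 in R 4.3.3 (glmQLFit and glmQLFTest; Benjamini-Hochberg over all genes tested, threshold 0.05), which leaves 9302 genes in the fit of 12 libraries. The SE of a log2 value is its size over the root of its F statistic. The trend has SU58 copies as 1 numeric term; the departure adds a term for 1 copy; steps and their difference are contrasts of genotype means. CPM values are scaled by TMM. The median biological coefficient of variation was 19.5% in the copies fit and 14.4% with a mean per genotype. Replicates of each genotype differed by more than counting noise, with a mean chi-square per gene of 12.9 in SU58xSU58 and 52.8 to 116 in the other genotypes, where noise alone gives about 1. Replicate numbers did not pair the samples. DESeq2 1.42.0, other filters and scalings, single libraries left out and other models were tried as alternatives. The scripts were checked on simulated counts.

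Genes were named by rule: up to 12 each way for the trend and 5 each way for other comparisons, by size among calls with a genotype mean of at least 10 CPM (for the trend, also with no overlap between libraries with and without SU58), and up to 3 per list by adjusted p. Dph1, SPR, miple2, Cyp6g1, GstE7, hgo, MRP, Mdr49 and gce lie outside this rule, as do tissue markers, members of runs of neighbours and CG2065. Members and lists were chosen with earlier results of these data known.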

Additional observations from a re-analysis of the deposited data

Results flagged for a closer look

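In these groups a single library lay far from the others by Dixon's test, which chance alone does in about 1 of 20 groups. With 1 SU58 copy, CG6184 had 2.15 CPM in SU58xZI418N replicate 2, where the other 3 libraries had 0.577 to 0.788, and CG12268 had 21.5 CPM in SU26xSU58 replicate 2, where the others had 3.48 to 5.45. With 0 copies, CG1695 had 0.665 CPM in ZI418NxZI418N replicate 2 (others 0.0249 to 0.202) and galene 14.4 CPM in the same library (others 6.94 to 9.14). In SU26xZI418N replicate 2, plx had 3.98 CPM (others 0.33 to 1.45) and CG9259 5910.0 CPM (others 7184 to 7905). In SU26xSU26 replicate 2, Jheh2 had 139.9 CPM (others 83.9 to 102) and Jheh1 144 CPM (others 63.1 to 87.6), and in SU26xSU26 replicate 1, Vml had 0.165 CPM (others 0.0284 to 0.0554).

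The step from 0 to 1 SU58 copy differed between the SU26 and ZI418N backgrounds for 5 genes in each direction named by size. The test was edgeR's quasi-likelihood test of the difference itself. Each step also removes a copy of a different line, so a difference between SU26 and ZI418N can give such a result. The step in the SU26 background exceeded that in the ZI418N background by 3.02 log2 units for chinmo (0.82 and -2.20), 2.90 for Ace (1.95 and -0.95), 2.64 for CG31683 (1.87 and -0.77), 2.34 for CG9664 (2.50 and 0.15) and 2.15 for CG31997 (1.88 and -0.27). The difference was -6.61 for Rh50 (0.46 and 7.07), -5.80 for CG9701 (-0.45 and 5.35), -5.19 for mthl9 (-0.14 and 5.05), -4.03 for Cyp12d1-d (0.03 and 4.06) and -3.94 for CG14957 (-1.04 and 2.91).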

How the results depend on the processing

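No named gene reversed its call under any alternative run, and of 1481 values over 74 genes, 1307 kept both direction and side of the threshold. The pooled share hides a spread between settings. All 74 genes were kept with DESeq2, whereas genotype sums, run for the trend only, kept 1 and weakened 57. Counts moved more. The trend count of 617 (385 rising, 232 falling) was 1109 with DESeq2 (543 falling), 1369 with ZI418N copies as a covariate (694 and 675), 1610 with a mean per genotype (905 and 705), 278 without both libraries with ovary transcripts (200 and 78) and 2 with genotype sums (2 and 0); 229 genes rose with a mean of at least 10 CPM. Departures from the line were 17 with DESeq2, 2 with that filter and 1 without the libraries with ovary transcripts. Without those libraries the parental count was 423, the hybrid count 16 and the count called in both 15. The hybrid count was 671 with DESeq2 and 110 with no filter, and that called in both 339 and 95. DESeq2 gave 853 steps in the SU26 background, 561 in the ZI418N background, 170 in both and 491 that differed. With the replicate number as a block the trend count was 531, the hybrid count 24 and that called in both 16; deviations of same-numbered libraries correlated between -0.223 and 0.319, above 0 in 7 of 15 pairs of genotypes, so libraries share only a number.

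With 1 library left out, ranges were 270 to 715 for the trend, 198 to 459 rising, 70 to 299 falling, 2 to 5 departures, 423 to 2027 parental, 2 to 1267 hybrid and 2 to 238 in both; for steps 114 to 559 (SU26), 122 to 407 (ZI418N), 40 to 116 (same direction) and 54 to 216 (difference). List medians then ranged from 0.113 to 0.215 (P450), -0.574 to -0.081 (antimicrobial), -1.857 to 0.394 (eggshell) and -0.072 to 0.237 (fat body), and the 1-copy position from 42.7% to 50.9%; it was 50.2% on log2 levels. With ZI418N copies as a covariate list medians were -0.107 for glutathione S-transferases, 0.171 for UDP-glycosyltransferases, -0.111 for oxidative phosphorylation, -0.157 for the proteasome, 0.074 for juvenile hormone and ecdysone turnover, 0.060 for stellate cell markers and 0.082 for salivary gland. With genotype means they were 0.080 for glutathione S-transferases, -0.135 for antimicrobial peptides and -0.529 for eggshell; with the replicate block, -0.314 and -0.823 for the last 2 lists; with a mean of at least 10 CPM, 0.010 for antimicrobial peptides and 0.442 for hemocytes; and without libraries with ovary transcripts, 0.161 for eggshell and -0.124 for fat body. The causes were not tested. The limits are 2 libraries per genotype, a single line with 2 copies, and dose tied to hybrid status.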
